A study of Mus musculus with 4 samples.

Results

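The genes described here are the MAP kinase phosphatases, the 10 members of the dual-specificity phosphatase (DUSP) family that remove phosphate from MAP kinases: Dusp1, Dusp2, Dusp4, Dusp5, Dusp6, Dusp7, Dusp8, Dusp9, Dusp10 and Dusp16. They were chosen by name, as every probe set whose annotation gives one of these symbols alone, which gave 18 probe sets for 10 of the 18193 genes with such a probe set. Expression was measured in melanoma allografts, tumours grown in the skin of nude mice, which lack T cells. The grafted cells were the mouse melanoma line iNRAS-475, which makes NRAS under the control of doxycycline. NRAS is a GTPase upstream of the kinases RAF, MEK and ERK. All 4 hosts drank water with 2 mg/ml doxycycline while the tumours grew for 6 weeks. There was 1 array of a tumour from a host kept on doxycycline and 1 array each from hosts without it for 24, 48 and 72 h. All 4 tumours come from the same line, and each RNA came from a piece of about 50 mg, trimmed of skin. No condition was repeated. Values therefore carry no error between replicates, and the host, the piece of tumour and the time off doxycycline cannot be told apart.

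MAP kinase phosphatases dephosphorylate both the threonine and the tyrosine that MEK or a related kinase adds to a MAP kinase, and so switch it off. Several of them are transcribed when ERK is active and thereby form a negative feedback loop, which is why their mRNA is widely read as a measure of pathway output in tumours with mutant RAS or RAF. By the substrates known for them they fall into 3 classes. Dusp5, a nuclear phosphatase that also anchors ERK in the nucleus, and the cytoplasmic Dusp6, Dusp7 and Dusp9 act mainly on ERK. Dusp1, Dusp2 and Dusp4 are nuclear and inducible and act on ERK, JNK and p38 to varying degrees. Dusp8, Dusp10 and Dusp16 act mainly on JNK and p38, the kinases of the stress response.

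The table held 1 intensity for each of 45037 probe sets and array, with medians between 33.3 and 34.0. Values are given as intensities, and differences on the scale log2(intensity + 32), as time off minus on unless another pair is named. This scale understates the differences of dim genes. Each gene was read from its brightest probe set by mean intensity. The 13522 genes with a mean of 24.9 or more, a limit set at the 40th percentile, were kept as the background. A gene was called 2-fold lower or higher where its difference was at least 1 in size. Of the 10 phosphatase genes 9 were kept. Dusp9 was not, with a mean just under the limit. The median difference of all genes kept was 0 at each time. The melanocyte regulator Sox10 was bright, at 3771 on doxycycline and 3613, 4681 and 3844 at 24, 48 and 72 h, whereas the pigment genes Tyr, Tyrp1 and Mlana were under the limit, so 5 of 8 melanocyte markers were kept. The brightest mouse Nras probe set read 163 on doxycycline, 256 at 24 h and 163 at both later times. The labels do not say whether it detects the induced NRAS.

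At 48 and 72 h Dusp6 and Dusp4 lay far below their values on doxycycline, and Dusp5 and Dusp2 were lower by less. The JNK- and p38-directed Dusp8 and Dusp16 differed little. Dusp10, of the same class as these, was at -0.47 at 72 h, lower than the ERK-directed Dusp7 at -0.21. The tumour 24 h after withdrawal lay close to the one kept on doxycycline for most of the genes, with Dusp7 below it and Dusp1 above it. Of the 9 genes kept, 0, 2 and 2 were 2-fold lower at 24, 48 and 72 h, where 0.0666%, 1.04% and 1.63% of all genes were. At these times 0 of the 9 were 2-fold higher, beside 0.266%, 0.754% and 2.29% of all genes. Below the on array by any amount were 7 of 9 at each of the 3 times, against 43.0%, 45.5% and 43.7% of all genes. In a bulk tumour piece fewer cells of a type and less RNA per cell cannot be told apart.

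**Figure D1:**
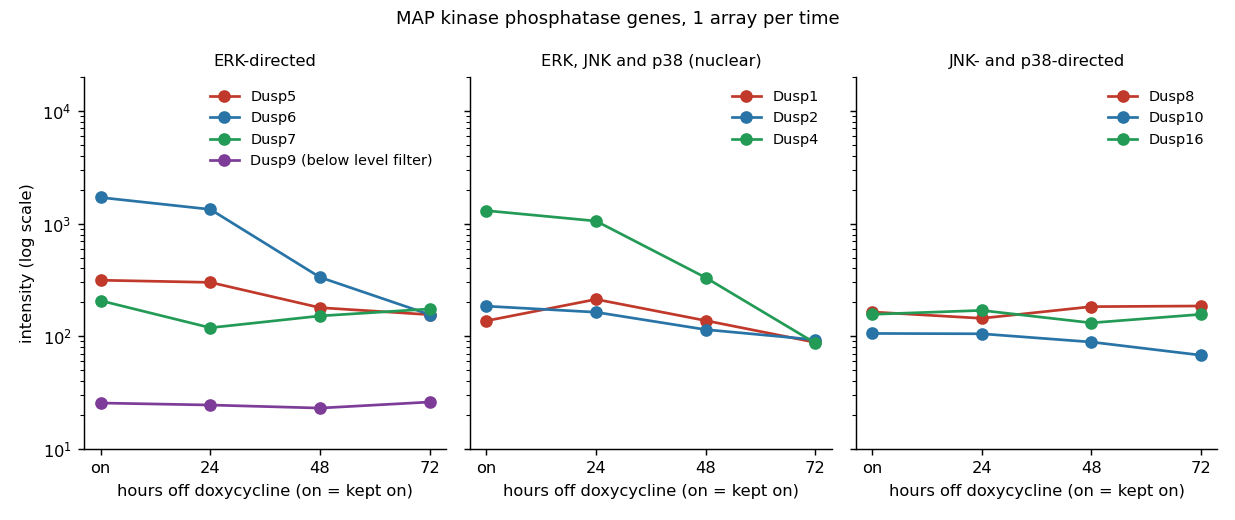
Intensity (log scale) of the brightest probe set of each of the 10 genes against hours off doxycycline, 1 point per array, in 3 panels by substrate class. Dusp6 and Dusp4 lie lower at 48 h and lower again at 72 h, when they read 156 and 86.8, while the lines of Dusp8 and Dusp16 stay between 131 and 186.

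Genes of this family are known to be switched on through ETS factors, serum response factor and CREB. The promoter of Dusp6 is shown for its low values at 48 and 72 h, and those of Dusp5, Dusp1 and Dusp8 for the motifs they hold. The RefSeq table (GRCm38.p6) held the promoter of 8 of the 10 genes, and Dusp4 and Dusp9 were not among them. The 250 bases before the transcription start were searched on both strands for 6 motifs, and matches are in capitals in the sequences, which run 5′ to 3′ on the gene's strand. The stretches lie at chr10:99262981-99263230 (plus strand) for Dusp6, chr19:53528895-53529144 (plus strand) for Dusp5, chr17:26508473-26508722 (minus strand) for Dusp1 and chr7:142095320-142095411 (minus strand), the part with the matches, for Dusp8.
Dusp6: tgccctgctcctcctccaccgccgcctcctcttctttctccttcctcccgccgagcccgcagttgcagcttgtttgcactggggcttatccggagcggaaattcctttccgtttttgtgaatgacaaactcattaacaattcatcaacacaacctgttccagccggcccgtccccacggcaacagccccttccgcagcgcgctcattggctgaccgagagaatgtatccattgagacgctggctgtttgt
Dusp5: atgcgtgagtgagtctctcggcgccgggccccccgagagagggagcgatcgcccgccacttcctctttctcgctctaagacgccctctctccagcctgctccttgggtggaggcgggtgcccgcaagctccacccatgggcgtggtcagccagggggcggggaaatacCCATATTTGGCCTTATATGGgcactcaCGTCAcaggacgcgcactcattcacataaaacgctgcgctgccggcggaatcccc
Dusp1: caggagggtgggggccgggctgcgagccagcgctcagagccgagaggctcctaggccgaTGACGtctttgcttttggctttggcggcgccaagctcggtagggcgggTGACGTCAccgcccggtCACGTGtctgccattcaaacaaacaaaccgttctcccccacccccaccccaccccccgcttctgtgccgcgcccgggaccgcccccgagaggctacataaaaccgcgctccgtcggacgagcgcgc
Dusp8: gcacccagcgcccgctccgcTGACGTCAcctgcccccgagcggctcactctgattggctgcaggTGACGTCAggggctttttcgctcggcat

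The Dusp5 promoter, whose gene was lower at 48 and 72 h, held a pair of CArG boxes, the sites serum response factor binds, directly next to each other from base 82 to base 63 before the start. A CArG box was found in 1.47% of the 32851 promoters of the table and in no other of the 8. The CRE, TGACGTCA, the full site of CREB, was found in 1.55% of all promoters. The Dusp1 promoter held 1 of them, 143 to 136 bases before the start, with an E-box, CACGTG, close by, and the Dusp8 promoter held 2. The E-box was found in 6.02% of all promoters and also in that of Dusp2. The shorter motif TGACG, which every full CRE contains, was found in 4 of the 8 (Dusp1, Dusp5, Dusp8 and Dusp16) and in 17.8% of all. CCGGAA, the form of the ETS site searched (12.0% of all), and the AP-1 site TGANTCA (6.75% of all) were in 0 of the 8. The Dusp6 window thus holds no capitals, although its letters include the shorter GGAA, which was not searched. In the Dusp5 window the capitals nearest the start are TGACG read on the opposite strand. A match is a description of these letters, and the absence of one says nothing about a factor or about bases outside the window.

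Among the ERK-directed phosphatases, Dusp6 (probe set 1415834_at) had the greatest differences at 48 and 72 h. Its intensity was 1706 on doxycycline and 1338, 334 and 156 after 24, 48 and 72 h off it. Each array was thus dimmer than the one before it in time. The 48 and 72 h values were 0.196 and 0.0912 times that on doxycycline. On the log2 scale the differences were -0.34, -2.25 and -3.21 at 24, 48 and 72 h. From the lowest difference upwards Dusp6 stood at rank 412, 9 and 8 of the 13522 genes at these times. Most of its difference lay in the interval between 24 and 48 h, which held 59.3% of the total, with 10.7% before and 30.0% after it.

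Dusp5 (1437199_at), the nuclear ERK phosphatase, followed the same order of arrays at smaller size. It read 314 on doxycycline and 301, 179 and 155 after 24, 48 and 72 h off it. The first pair of arrays were near each other and above the later pair. The differences were -0.06, -0.71 and -0.89, and at 72 h 2.17% of all genes were as low or lower. Without a pseudocount the 72 h difference was -1.02, which passes the 2-fold limit.

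Dusp7, a cytoplasmic relative of Dusp6, had another time course. Its brightest probe set (1452097_a_at) read 207 on doxycycline and 119, 151 and 175 after 24, 48 and 72 h off it. It was lowest at 24 h and came nearer to the on value at each later time. The differences were -0.66, -0.38 and -0.21, and at 24 h it stood at rank 48 of the 13522 genes from the lowest. The second probe set read 151 on doxycycline and about 116 at all 3 later times, and the third, a dim one, read 44.0, 31.5, 33.4 and 31.4. All 3 Dusp7 probe sets were below the on array at each time, but the return towards it at 72 h was seen in the brightest alone.

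Dusp9, the third cytoplasmic member, was dim in every tumour. Its 3 probe sets read 25.5, 15.0 and 14.4 on doxycycline and 26.0, 15.0 and 10.1 at 72 h. No difference of any of them exceeded 0.14 in size, and the brightest stood at percentile 39.8 of all probe set means. The ERK-directed class had median differences of -0.34, -0.71 and -0.89 at 24, 48 and 72 h over its 3 genes kept, beside a median of 0 over all genes.

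Among the nuclear phosphatases with the broader substrate range, Dusp4 (1428834_at) was the lowest. Its intensity was 1303 on doxycycline and 1054, 331 and 86.8 after 24, 48 and 72 h off it, and each array was again dimmer than the earlier ones. The value at 72 h was 0.0666 times that on doxycycline, with differences of -0.30, -1.88 and -3.49. From the lowest upwards Dusp4 stood at rank 604, 17 and 5 of all genes. Unlike that of Dusp6, its difference was spread about evenly over the later intervals. Of the total 45.3% lay between 24 and 48 h and 46.2% between 48 and 72 h. Which of these intervals held more depended on the pseudocount. At 24, 48 and 72 h the Dusp4 differences were -0.31, -1.98 and -3.91 without one. With one 4 times as large they were -0.28, -1.64 and -2.74. The 72 h value was 0.262 times that at 48 h for Dusp4 and 0.466 times for Dusp6.

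Dusp2 (1450698_at), best known from activated lymphocytes and macrophages, was lower by less. It read 185 on doxycycline and 163, 114 and 93.0 after 24, 48 and 72 h off it, dimmer on each later array. The differences were -0.15, -0.57 and -0.80, and 2.55% of all genes were as low or lower at 72 h. Macrophage markers lay on the other side: all 6 of the list were above the on array at 72 h, their summed intensity was 2984 on doxycycline and 5463, 4810.5 and 9865 at 24, 48 and 72 h, and none was near 0. Their part in the Dusp2 values was not tested.

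Dusp1 (1448830_at), an immediate early gene induced by growth factors and stress, had its highest value at 24 h, as Dusp16 also did by a smaller margin. It read 137 on doxycycline and 213, 138 and 88.1 after 24, 48 and 72 h off it. The 24 h array was above the other 3, the on and 48 h arrays were nearly equal, and the 72 h array was lowest. The differences were 0.53, 0.01 and -0.49. At 24 h 1.69% of all genes were as high or higher, and at 72 h 5.61% were as low or lower. The nuclear class had medians of -0.15, -0.57 and -0.80 over its 3 genes.

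The JNK- and p38-directed phosphatases had the median differences nearest 0 of the 3 classes. Dusp8, in its brightest probe set (1428864_at), read 164 on doxycycline and 144, 183 and 186 after 24, 48 and 72 h off it, so that the later pair of arrays lay slightly above the first pair. Its differences were -0.15, 0.13 and 0.15. The other Dusp8 probe sets differed by at most 0.06 in size and did not show this. Dusp16 (1418401_a_at), which prefers JNK, read 156 on doxycycline and 169.5, 131 and 156 after 24, 48 and 72 h off it. The on and 72 h values were identical, with differences of 0.10, -0.21 and 0.00, and the other Dusp16 probe set was near the floor, at 9.79 to 11.0.

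Dusp10, which acts on JNK and p38, was the lowest of its class at 72 h but not at 24 or 48 h. Its brightest probe set (1417164_at) read 106 on doxycycline and 105, 88.8 and 67.8 after 24, 48 and 72 h off it. The dimmer one read 32.1, 24.7, 23.3 and 18.6 over the same arrays. Both had the 72 h array lowest. Their differences at 72 h were -0.47 and -0.34, and 6.06% of all genes were as low or lower than the first. The class median was -0.01, -0.19 and 0.00 at 24, 48 and 72 h.

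**Figure D2:**
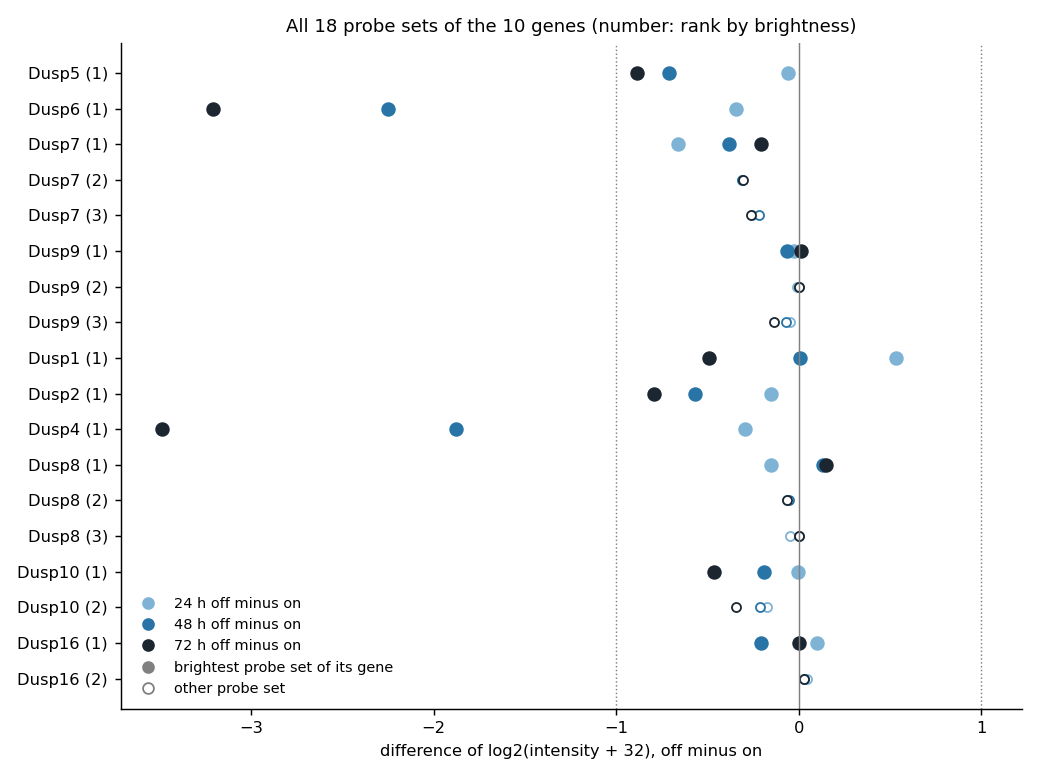
Difference of log2(intensity + 32), off minus on, for all 18 probe sets, 1 row each, with the brightest of each gene filled and the others open; dotted lines mark a 2-fold difference. Only the Dusp4 and Dusp6 probe sets pass the 2-fold line, at 48 and 72 h, and the 3 probe sets of Dusp7 lie below 0 at every time.

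Of the 10 genes 5 have a single probe set (Dusp1, Dusp2, Dusp4, Dusp5 and Dusp6), so no second measurement stands beside the values of the genes with the greatest differences. Exactly equal values on different arrays were common in the table, at 48.0% of all probe sets. They occurred in 6 of the 18 phosphatase probe sets but in only 1 of the 10 brightest, that of Dusp16.

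The comparison between 72 and 24 h leaves out the control array, which all off minus on differences above share. The 72 h array is still part of it. The same pair of genes led it: Dusp4 was lower at 72 h than at 24 h by a difference of -3.19 and Dusp6 by -2.87. Dusp1, at 88.1 against 213, passed the 2-fold limit as well, with -1.03, so 3 of 9 were 2-fold lower, beside 1.85% of all genes. With a pseudocount 4 times as large Dusp1 stood at -0.66, inside the limit. Dusp5, Dusp2 and Dusp10 had -0.83, -0.64 and -0.46, and Dusp7 and Dusp8 were above their 24 h values by 0.45 and 0.30. Between 24 and 48 h 2 of 9, Dusp6 (-1.91) and Dusp4 (-1.58), were 2-fold lower at the later time, beside 1.01% of all genes. Between 48 and 72 h it was 1 of 9, Dusp4 (-1.61), beside 0.214%. Dusp6, at -0.96, was just inside the limit over that interval.

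**Figure D3:**
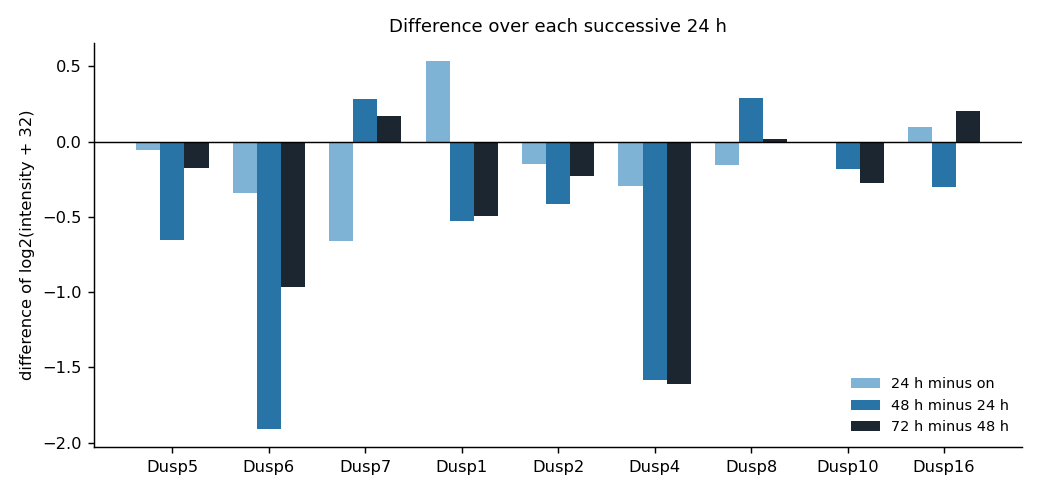
Bars give the difference of log2(intensity + 32) over each successive 24 h for the 9 genes kept, from 1 array per time. Dusp6 has its longest bar between 24 and 48 h (-1.91), and Dusp4 has bars of about equal length after 24 h (-1.58 and -1.61). Dusp7, Dusp1 and Dusp8 have opposite signs before and after 24 h. The bars of Dusp16 change sign at each step, at 0.10, -0.30 and 0.21.

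A straight line over the hours off doxycycline was fitted with limma to all 4 arrays, as the one test across genes that single arrays allow. It leaves 2 residual degrees of freedom. Dusp4 and Dusp6 had slopes of -1.21 ± 0.179 and -1.15 ± 0.161 (SE) per 24 h, and Dusp2 and Dusp5 had slopes of -0.28 ± 0.0336 and -0.33 ± 0.0658. The limma adjusted p was 0.241 for Dusp2, Dusp4 and Dusp6, 0.249 for Dusp5 and 0.265 for Dusp10. So 0 of the 9 genes were called, beside 0% of all 13522. At an unadjusted p under 0.05 in this fit there were 5 of the 9, beside 2103 of all 13522 genes. The lowest limma adjusted p of any gene was 0.241.

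**Figure D4:**
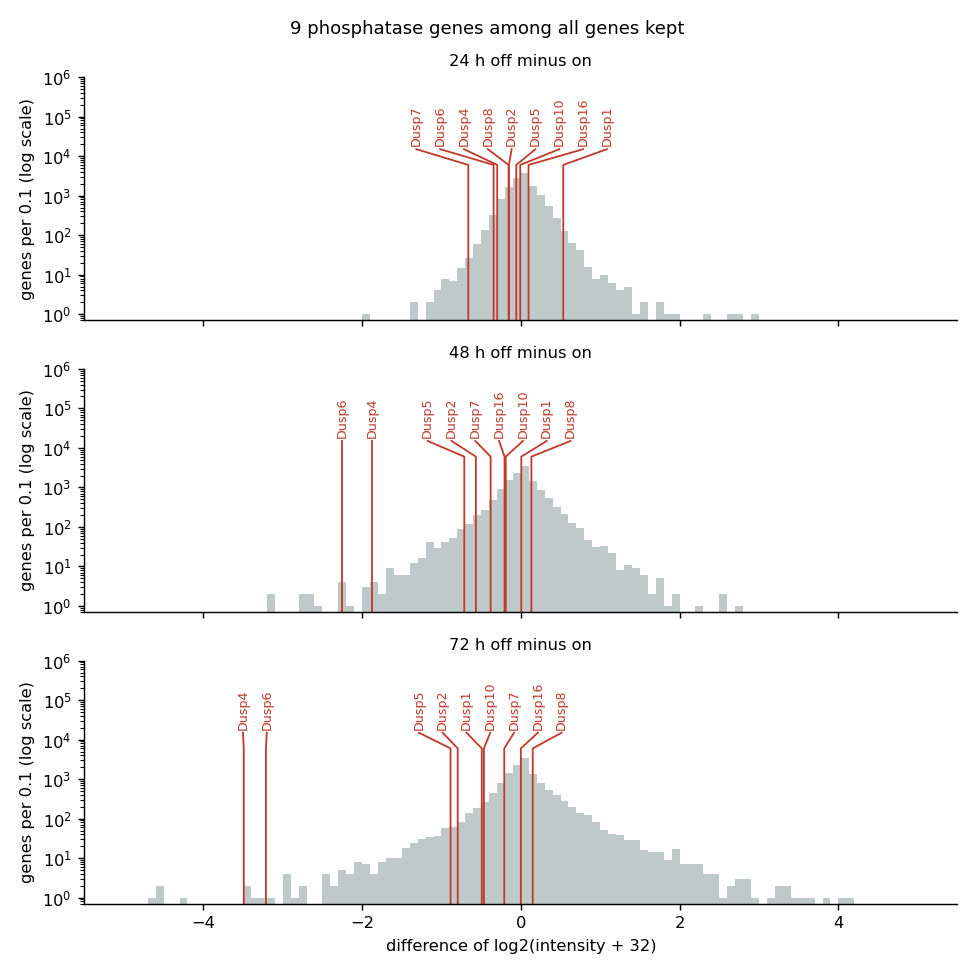
Histograms of the difference of log2(intensity + 32) of all 13522 genes kept (bins of 0.1, log scale) at each time, with red lines at the 9 phosphatase genes. At 72 h Dusp4 and Dusp6 stand in the far lower tail, Dusp5 and Dusp2 at its shoulder, and Dusp16 and Dusp8 in the central mass.

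The 72 h tumour piece also differed from the others in markers of other tissues. All 6 skeletal muscle markers were 2-fold higher there, beside 2.29% of all genes. Their summed intensity was 241 on doxycycline and 506, 216 and 3994 at 24, 48 and 72 h. The sums of the 5 fibroblast markers were 9643, 10547, 20652 and 40853, and 4 of the 5 were 2-fold higher at 72 h. Of the 5 adipocyte markers 4 had a probe set, with sums of 309.7, 120.1, 422 and 1639. The 2 of these that were kept, Fabp4 and Adipoq, were both 2-fold higher at 72 h. All 8 melanocyte markers, dim ones included, summed to 4356, 4134, 5689 and 4823. The 5 of them kept had a median difference of 0.62 at 72 h, with 4 above the on array and Sox10 at 0.03. The other Sox10 probe sets were below the on array at 72 h, at -0.09 and -0.55. At 48 h none of the 6 muscle markers was above the on array. Of the fibroblast markers 4 of 5 were above the on array at 48 h, with Pdgfra below it. The part of these tissues in the phosphatase values was not tested.

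Genes whose 3 differences were nearest to those of Dusp6, by the root mean square distance over 24, 48 and 72 h, were Nefl (0.10), the light neurofilament subunit, Timp1 (0.16), an inhibitor of metalloproteases, the calcium-binding S100a3 (0.24), Dusp4 (0.27) and the kallikrein-related peptidase Klk10 (0.28). Nefl read 1028 on doxycycline and 821, 208 and 71.6 after 24, 48 and 72 h off it. Timp1 read 7705, 6833, 1620.4 and 942 over the same arrays. For Dusp4 the nearest were Nefl (0.17), Dusp6 (0.27), Timp1 (0.36), Ier3 (0.41) and the cyclin D gene Ccnd1 (0.43). Dusp4 and Dusp6 were thus each among the 5 nearest to the other out of 13522 genes. The next of the family, Dusp5, stood at rank 256 for Dusp6 and 255 for Dusp4. The distance depends on the size of the differences as well as on their order. At 72 h few genes were as low as Dusp4 and Dusp6, which stood at ranks 5 and 8 from the lowest difference. With 4 arrays such closeness is a description of the profiles only.

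Of other genes that ERK is known to switch on, which were listed with earlier results of these data known, 20 of 21 were kept. At 24, 48 and 72 h 0, 9 and 12 of them were 2-fold lower, beside 0.0666%, 1.04% and 1.63% of all genes. At these times 0 were 2-fold higher, beside 0.266%, 0.754% and 2.29%. Their medians were -0.18, -0.93 and -1.28. Those furthest from the on array were Ier3, at -2.92 at 72 h, Ccnd1 (-2.89), the EGF receptor ligand gene Hbegf (-2.46) and Phlda1 (-2.39). None of these 20 was as low at 48 or 72 h as Dusp6, whose differences were -2.25 and -3.21.

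The other dual-specificity phosphatases, small enzymes that mostly lack the docking domain for MAP kinases, stayed near the on array. Of 17 listed 13 were kept, and 0 of them were 2-fold different at any time. Of all genes 1.63% were 2-fold lower and 2.29% 2-fold higher at 72 h, so 0 of 13 is not far from that share. Their medians were 0.00 at each of the 3 times. The greatest mean sizes belonged to Styx, a catalytically dead relative that holds ERK in the nucleus, Dusp14, Styxl1 and Dusp3, which acts on ERK and JNK. Styx read 62.3 on doxycycline and 112, 96.0 and 90.4 later, a pattern highest at 24 h, while other Styx probe sets had differences of at most 0.33. Styxl1 was at -0.26 at all 3 times, with exactly equal values (83.6) on these arrays. Dusp14 read 86.2, 79.9, 62.7 and 56.7, in the same order as Dusp2 at smaller size. Dusp3 was 0.45 higher at 72 h in its brightest probe set and -0.28 in the next.

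Phosphatases of other families that act on MAP kinases were also near the on array. Of 9 listed 7 were kept, with medians of 0.03, -0.09 and -0.09. Of the 7, 0 were 2-fold different, beside 1.63% of all genes 2-fold lower and 2.29% higher at 72 h. In their brightest probe sets all 7 were below the on array at 72 h, by at most 0.38, beside 43.7% of all genes. Ppm1b and Ppm1d were close to it, at -0.01 and -0.005. Dimmer probe sets of these genes lay on both sides at 72 h. Those of Ppm1a included 0.23 and -0.21, and others were at 0.18 (Ppm1b), 0.10 (Ppp2ca) and -0.43 (Ppp2r1a). The greatest mean sizes were those of Ppp2cb and Ppp2r1a, subunits of a serine and threonine phosphatase, at -0.38 and -0.24 at 72 h, Ppm1a (-0.18) and Ptprr (-0.09), a tyrosine phosphatase that docks MAP kinases.

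Of the genes for the MAP kinases themselves, the substrates, 6 of 10 were kept. None of the 6 was 2-fold different, beside 1.63% of all genes 2-fold lower and 2.29% higher at 72 h. The medians were -0.06, 0.05 and 0.02. Mapk9, which encodes a JNK, stood apart from the rest. It read 249 on doxycycline and 339, 519 and 487 after 24, 48 and 72 h off it, so that all 3 later arrays were brighter, with differences of 0.40, 0.97 and 0.89. Its other probe sets were higher too, by 0.83 and 0.29 at 48 h. Mapk12, a p38 gene, was at -0.33 and -0.18 at 48 and 72 h, Mapk8, the other JNK gene kept, at 0.16 and 0.05, and Mapk7 at 0.04 and 0.02.

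Among the kinases that activate MAP kinases, 6 of 7 genes were kept and the medians were 0.02, 0.03 and -0.04. Map2k3, which activates p38, was the one gene 2-fold different, at 48 h, where 1.04% of all genes were 2-fold lower. It read 647 on doxycycline and 590.0, 268 and 328 after 24, 48 and 72 h off it. Its differences at 48 and 72 h were -1.18 and -0.92, and those of its other probe set were -0.73 and -0.86. Map2k1, which encodes a MEK that activates ERK, was higher by 0.58 and 0.29 at these times, Map2k2, the other MEK gene, was at -0.13 and -0.20, and Map2k5 at 0.00 and -0.07.

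Stress-responsive genes of JNK and p38 signalling lay on both sides of the on array, with all 10 kept. Their medians were 0.00, 0.39 and 0.60 at 24, 48 and 72 h. At these times 0, 0 and 1 gene were 2-fold lower, beside 0.0666%, 1.04% and 1.63% of all genes. The 2-fold higher were 0, 1 and 1, beside 0.266%, 0.754% and 2.29%. Atf3, a transcription factor of the stress response, read 118 on doxycycline and 115, 264 and 692 after 24, 48 and 72 h off it. Jun, the substrate after which JNK is named, read 963, 939, 1971 and 1456, and its other probe set had differences of 1.07 and 0.98 at 48 and 72 h. Gadd45b was higher by 0.95 and 0.87 at these times, and Atf2 by 0.92 and 0.76, although another Atf2 probe set was at -0.08 and -0.19. Junb, named after its values were seen, was the 2-fold lower gene (-1.01 at 72 h). It read 226 on doxycycline and 282, 174 and 96.2 after 24, 48 and 72 h off it, highest at 24 h and lowest at 72 h as Dusp1 was.

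**Figure D5:**
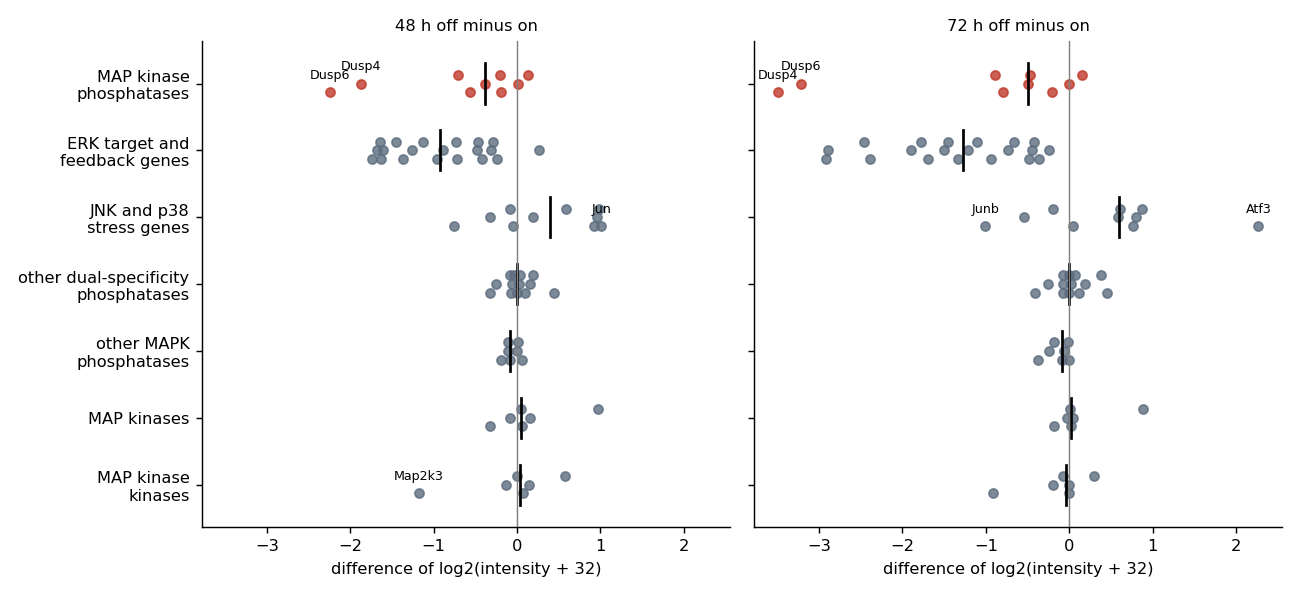
Difference of log2(intensity + 32) at 48 and 72 h for the 9 phosphatase genes kept (red) and the genes of 6 other lists (grey), 1 point per gene, with a black line at each list's median. The phosphatases spread from Dusp6 and Dusp4 at the far left to Dusp8 just above 0, the ERK target genes have medians of -0.93 and -1.28, and genes past 2-fold are named except in the ERK target list.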

How the data were processed

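Gene expression was measured on Affymetrix mouse arrays of 4 tumours, 1 array per condition, grouped by the treatment the labels give. The authors deposited linear intensities, 1 for each probe set on each array. MAS5 and RMA appear in the submitters' processing notes without a version or a stated role. The method behind the values and the scaling of the arrays are therefore unknown here. Of 45037 probe sets, 34945 had 1 symbol in the platform annotation, 932 had several and 9160 had no entry. Only probe sets with 1 symbol were used. Log2 of intensity plus a pseudocount of 32, the choice of the brightest probe set, the level limit at the 40th percentile and all differences were computed from the deposited values with no further normalization.

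The linear fit used limma 3.58.1 (R 4.3.3; lmFit, eBayes with trend) with the on array at 0 h and Benjamini-Hochberg adjustment over all genes. The script was tested on simulated data. Python 3.11.15, pandas 2.3.3, NumPy 2.4.6 and matplotlib 3.10.9 were used otherwise.

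The members, the gene lists (6 of genes related to MAP kinases and 10 of markers) and the tests were chosen with earlier results of these data known. Named were all members, the 5 genes nearest in profile to each member 2-fold different at 72 h, and the 4 genes of each related list with the greatest mean size of difference. Of the marker lists, those of lymphoid, endothelial, keratinocyte, neutrophil and mast cells had medians at 72 h of -0.01, 0.55, 0.02, -0.03 and 0.21. Alternatives were quantile normalization, median centring, pseudocounts of 8, of 4 times 32 and of 0, a level limit at the 60th percentile or none, averaged probe sets, omission of the probe sets whose names end in _x_at or _s_at and, for the linear fit, no variance trend, no tied genes and each off array left out. Only 4 arrays limit the precision of every value.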

Additional observations from a re-analysis of the deposited data

How the results depend on the processing

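The count of phosphatase genes 2-fold different from the on array was 0 at 24 h and 2 at 48 h under all 9 alternative settings, and 2 at 72 h under all but the setting without a pseudocount, where Dusp5 made it 3. Between 72 and 24 h it was 3 under all but a pseudocount 4 times as large, where Dusp1 stood at -0.66 and the count was 2. Across the settings Dusp6 at 72 h ranged from -3.45 to -2.69, Dusp4 from -3.91 to -2.74, Dusp5 from -1.02 to -0.64, Dusp2 from -0.99 to -0.50 and Dusp1 at 24 h from 0.36 to 0.63. With the level limit kept at the 40th percentile, the 72 h medians ranged from -1.02 to -0.64 for the ERK-directed class. They ranged from -0.99 to -0.50 for the nuclear class and from -0.06 to 0.01 for the JNK- and p38-directed class. Class medians were not computed for the other level limits. Without a limit the ERK-directed class would also hold Dusp9, whose 72 h difference was 0.01. The linear fit called 0 phosphatase genes and 0 of all genes under every alternative, including without each off array; the limma adjusted p of Dusp4 and Dusp6 ranged from 0.0863 to 0.616.

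The background counts depended more on the settings. At 24, 48 and 72 h, 9, 141 and 220 genes were 2-fold lower and 36, 102 and 309 higher. With a pseudocount 4 times as large these were 1, 58 and 118 lower and 12, 39 and 168 higher. Without a pseudocount they were 29, 212 and 299 lower and 68, 186 and 501 higher. With a pseudocount of 8 they were 18, 178 and 266 lower and 53, 154 and 437 higher. With probe sets averaged they were 5, 81 and 139 lower and 24, 54 and 193 higher. Signal near the floor of the array limits what can be said of Dusp9 and of the dimmer probe sets. No paired analysis was possible because each condition has 1 array.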
